A study of Homo sapiens with 6 samples.

Results

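Chemokines are small secreted proteins that guide leukocytes, and tumor cells are one of their sources. The expression of 10 inflammatory chemokine genes, CXCL1, CXCL2, CXCL3, CXCL5, CXCL8, CXCL10, CXCL16, CCL2, CCL5 and CCL20, was examined in MDA-MB-231 cells silenced for NEK2, a mitotic kinase. The genes were chosen by name, as chemokines of the acute inflammatory response, with earlier results of these data known. Each of the 10 was found among the 74852 genes listed. MDA-MB-231 is an established human cell line of mesenchymal, triple negative breast cancer (TNBC), that is, cancer without estrogen receptor, progesterone receptor or HER2 amplification. One group of cells (si-CTRL) received a pool of non-targeting siRNAs and the other (si-NEK2) a pool of siRNAs against NEK2. Both were transfected in 2 rounds with Lipofectamine, collected 24 h after the second according to the sample records (the methods of the paper give the time differently), and sequenced as polyA-enriched RNA in 3 libraries per group. A single line and a single siRNA pool per target were used, so that an effect of NEK2 loss and an off-target effect of the pool cannot be told apart. No record says whether the 3 libraries of a group were grown on separate days, and p-values measure only the spread between these libraries.

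Inflammatory chemokines are usually silent or weakly transcribed in resting cells and are switched on by interleukin 1, TNF or microbial products through NF-kB, often together with AP-1 and C/EBP factors. Their mRNAs carry AU-rich elements that make them short-lived, so that the transcript level follows both synthesis and decay. CXCL1, CXCL2, CXCL3, CXCL5 and CXCL8 (interleukin 8) share a Glu-Leu-Arg motif before the first cysteines and attract neutrophils. They act through CXCR2, and CXCL8 also through CXCR1. CXCL10 is induced by interferon and attracts activated T cells through CXCR3. CXCL16 is made as a transmembrane protein, binds CXCR6 and is released by the sheddase ADAM10. CCL2 attracts monocytes through CCR2, CCL5 attracts T cells and monocytes, and CCL20 attracts CCR6-bearing dendritic cells and lymphocytes. In TNBC cells of the mesenchymal type CXCL8 and CXCL1 are known as abundant secreted products.

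The promoters are shown first because they show what the neutrophil attractants have in common. RefSeq promoters (GRCh38.p14, 250 bases before to 50 bases after the gene start, 300 in all) were matched by symbol for 7 of the 10 genes. CXCL16, CCL2 and CCL5 are only named. The NF-kB-type sequence GGAATTTCC was searched on both strands, and was found in 6 of these 7 promoters, those of CXCL1, CXCL2, CXCL3, CXCL5, CXCL8 and CXCL10. The CCL20 window did not hold these letters. Over all 35116 promoters of the table, 162 (0.461%) held the sequence. Only this exact form was searched, other NF-kB-type forms were not, and several of these promoters are near copies of each other. These shares are thus descriptions and do not test whether the sequence is more frequent in chemokine promoters. Stretches around these letters, CXCL6 included as the nearest relative of CXCL5, are printed below in gene direction, with the NF-kB-type letters in capitals. Their positions on GRCh38.p14 are chr4:73740438-73740526 (CXCL8, plus strand), chr4:73836549-73836637 (CXCL6, plus), chr4:73869275-73869363 (CXCL1, plus), chr4:73998719-73998807 (CXCL5, minus), chr4:74038719-74038807 (CXCL3, minus), chr4:74099224-74099312 (CXCL2, minus) and chr4:76023625-76023713 (CXCL10, minus).
CXCL8: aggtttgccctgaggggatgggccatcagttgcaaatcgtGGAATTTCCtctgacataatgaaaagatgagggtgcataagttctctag
CXCL6: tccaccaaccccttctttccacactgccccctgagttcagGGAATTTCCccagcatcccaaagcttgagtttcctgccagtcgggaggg
CXCL1: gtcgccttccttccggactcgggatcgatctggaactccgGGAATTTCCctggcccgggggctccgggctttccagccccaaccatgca
CXCL5: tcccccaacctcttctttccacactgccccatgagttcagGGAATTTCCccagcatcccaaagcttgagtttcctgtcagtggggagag
CXCL3: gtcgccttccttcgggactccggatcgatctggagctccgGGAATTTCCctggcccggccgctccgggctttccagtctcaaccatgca
CXCL2: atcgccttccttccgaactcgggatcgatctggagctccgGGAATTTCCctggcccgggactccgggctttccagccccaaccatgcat
CXCL10: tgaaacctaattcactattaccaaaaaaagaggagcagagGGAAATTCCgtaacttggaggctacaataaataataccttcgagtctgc

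In the CXC genes other than CXCL10 the NF-kB-type letters began between 77 and 91 bases before the gene start. In CXCL10 they lay farther out, from 176 to 168 bases before the start, and on the opposite strand. CXCL1 and CXCL3 were alike over 82.5% of the aligned columns of their whole promoters, CXCL1 and CXCL2 over 71.9%, and CXCL5 and CXCL6 over 83.1%. CXCL8, by contrast, shared 45.2% with CXCL1, close to the 44.1% between CCL20 and CXCL12. CXCL8 was also the one gene of the 7 whose promoter held the AP-1 sequence TGACTCA, from 137 to 131 bases before its start. That sequence, searched on both strands, occurs in 4.95% of all promoters. A match is a description of the letters and not evidence of binding.

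The silenced transcript and the depth of the libraries were checked next. The deposited values are read counts divided by a size factor of the library, here called normalized counts, and they corresponded to between 52625492 and 87454509 reads per library, with 1 read worth between 0.818 and 1.25 normalized counts. NEK2 fell from 3438 ± 229 to 344.9 ± 54.4 normalized counts (SD, n = 3), so that 10.0% remained. Of the markers of the line, VIM stood at 157264 ± 14370 normalized counts in si-CTRL (SD, n = 3), and ESR1, PGR, CDH1 and EPCAM had at most 16 reads in any library. ERBB2, listed as low, was detected, at 2822 ± 544 normalized counts in si-CTRL and 4020 ± 80.8 in si-NEK2 (SD, n = 3; not called, row shared with MIR4728), and CD44 and ZEB1, listed as high, fell by 0.76 and 0.82 on the log2 scale. Together, 5 leukocyte markers summed to between 8.75 and 19.4 normalized counts in si-CTRL and between 18.1 and 34.4 in si-NEK2. The 3 endothelial markers PECAM1, VWF and CDH5 summed to between 49.4 and 76.2 in si-CTRL and between 28.9 and 39.5 in si-NEK2, without overlap, and CDH5 fell (log2 fold change -1.06); the part of these low levels in the chemokine results was not tested. The library si-CTRL replicate 1 stood apart from the other libraries of its group, with a chi-square per degree of freedom of 75.8 and 80.2 against them, compared with at most 26.6 for any other pair within a group. Genes averaging 10 normalized counts or more were tested with limma on log2(value + 1), and a gene is named as risen, fallen or called where p did not exceed 0.05 and the levels differed by 1.5-fold or more.

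NEK2 silencing was accompanied by lower levels of the neutrophil-attracting chemokines and of CCL5 and CCL20, while CXCL16 and CCL2 did not pass the test. Of the 10 genes, 8 had enough reads to be tested. CXCL1, CXCL2, CXCL3, CXCL8, CCL5 and CCL20 fell, none rose, and CXCL5 and CXCL10 were near the limit of detection. For comparison, 22.5% of the 18717 genes tested were called, 14.3% as lower and 8.23% as higher. The median log2 fold change of the 8 genes was -1.38, against 0.01 over all tested genes. As the genes were chosen with earlier results of these data known, these comparisons describe the set and do not test it. In the same 6 of 8 genes each si-NEK2 library lay below each si-CTRL library, a pattern found in 26.9% of all tested genes, and groups that did not overlap in one direction or the other made up 55% of all tested genes. As RNA of whole cultures was sequenced, fewer expressing cells and less RNA per cell cannot be told apart.

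**Figure D1:**
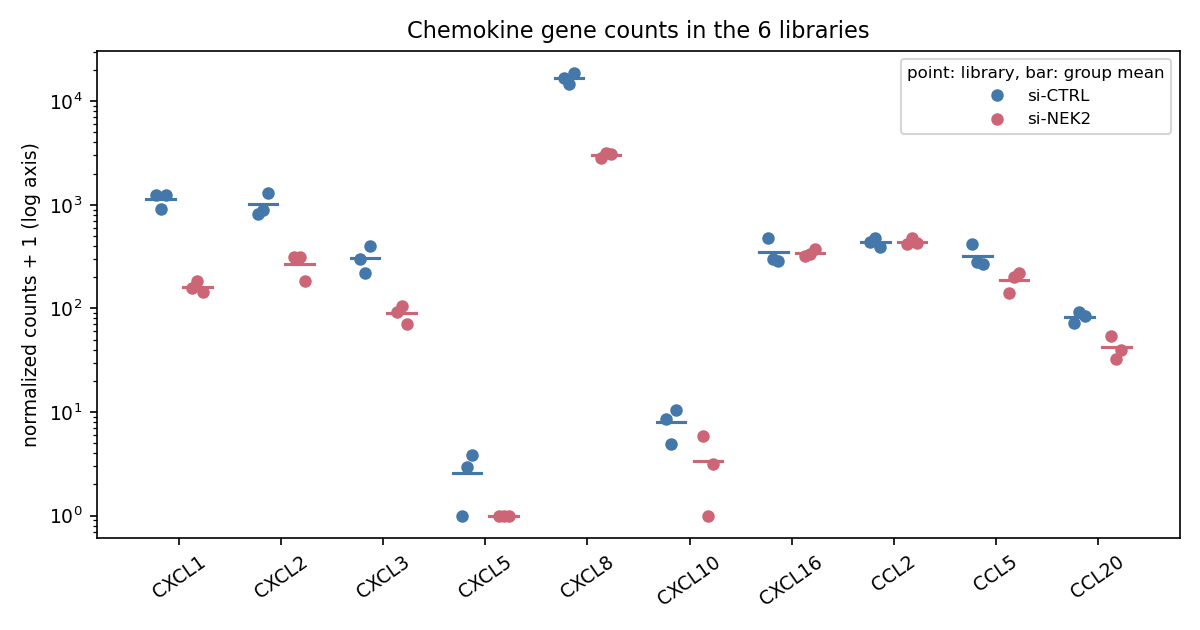
Normalized counts plus 1 (log axis) of the 10 chemokine genes in each of the 3 si-CTRL and 3 si-NEK2 libraries, with points for libraries and bars for group means. CXCL8 stands above all others in both groups, the points of CXCL1, CXCL2, CXCL3, CXCL8, CCL5 and CCL20 separate by group, and those of CXCL16 and CCL2 overlap.

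Among the neutrophil attractants, CXCL8 (GSHG0054650, chromosome 4 from 74606223 to 74609431, hg19) was by far the most abundant. It had 16678, 14504 and 18765 normalized counts in si-CTRL replicates 1 to 3 and 2816, 3158 and 3066 in si-NEK2 replicates 1 to 3. The groups were separated by a wide gap, and the si-NEK2 libraries lay close together. The mean fell from 16649 ± 2131 to 3013 ± 177 (SD, n = 3), or 5.53-fold. The log2 fold change was -2.46 (standard error 0.10, limma with Benjamini-Hochberg adjusted p = 2.39e-06), the 96th largest decrease among all tested genes. Even so, CXCL8 remained the most abundant of the 10 transcripts after silencing.

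CXCL1 (GSHG0022658, chromosome 4 from 74735109 to 74737018, hg19), known as GRO-alpha, showed the deepest decrease of the set. Its normalized counts were 1239, 908 and 1239 in the si-CTRL libraries and 155, 184 and 144 in the si-NEK2 libraries. The highest si-NEK2 library lay far below the lowest si-CTRL library. The mean went from 1128 ± 191 to 161 ± 20.8 (SD, n = 3), leaving 14.3% of the transcript, with a log2 fold change of -2.79 (standard error 0.15, limma with Benjamini-Hochberg adjusted p = 6.51e-06).

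CXCL2 and CXCL3, the close relatives of CXCL1 (GRO-beta and GRO-gamma), fell less deeply. CXCL2 (GSHG0023321, chromosome 4 from 74962756 to 74964997, hg19) had 815, 898 and 1307 normalized counts in si-CTRL and 310.2, 315 and 185 in si-NEK2. The highest si-CTRL and the lowest si-NEK2 value were both in replicate 3 of their group, and the groups did not overlap. The mean decreased from 1007 ± 264 to 270 ± 73.8 (SD, n = 3), with a log2 fold change of -1.91 (standard error 0.24, limma with Benjamini-Hochberg adjusted p = 0.000332). CXCL3 (GSHG0023319, chromosome 4 from 74902314 to 74904524, hg19) had 300.0, 218 and 399 normalized counts in si-CTRL and 90.8, 104 and 70.4 in si-NEK2. As for CXCL2, the spread in si-CTRL was wide but no value of one group fell within the other. The log2 fold change of CXCL3 was -1.75 (standard error 0.23, limma with Benjamini-Hochberg adjusted p = 0.000477), from a mean of 306 ± 90.8 to 88.4 ± 16.9 (SD, n = 3).

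Because these 3 genes are near copies of each other, the longest annotated transcripts were compared for reads that could be assigned to more than one of them. No stretch of 100 bases, the read length given in the methods, was shared between the transcripts of CXCL1, CXCL2, CXCL3, CXCL5, CXCL6 and CXCL8. At 50 bases, 5.73% of the windows of CXCL1 were also found in CXCL2 and 0.573% in CXCL3.

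CXCL5, the epithelial neutrophil attractant ENA-78 (GSHG0023318, chromosome 4 from 74861360 to 74864446, hg19), was hardly detected. It had 0, 2 and 3 reads in the si-CTRL libraries and none in the si-NEK2 libraries. As a count of 0 allows up to 3 reads, a difference was not detectable at this depth. CXCL10 (GSHG0023336, chromosome 4 from 76942270 to 76944689, hg19) was scarcely higher, with 6, 4 and 10 reads in si-CTRL and 6, 0 and 2 reads in si-NEK2. Its groups overlapped, and it was below the limit set for testing. Both genes carry the NF-kB-type sequence in the promoter, as do CXCL1, CXCL2, CXCL3 and CXCL8, which were well expressed.

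CXCL16, the membrane-bound chemokine (GSHG0013010, chromosome 17 from 4636826 to 4643223, hg19), had 472, 298 and 285 normalized counts in si-CTRL and 322, 331 and 370.2 in si-NEK2. The 3 si-NEK2 values fell between the highest and the lower values of si-CTRL. The log2 fold change was -0.01 with a 95% interval from -0.43 to 0.41 (limma with Benjamini-Hochberg adjusted p = 0.976). The high value came from si-CTRL replicate 1, the library that stood apart, and without it the log2 fold change was 0.22.

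Of the CC chemokines, CCL2, the monocyte attractant MCP-1 (GSHG0012398, chromosome 17 from 32582296 to 32584219, hg19), had 434, 479 and 389.8 normalized counts in si-CTRL and 417, 479 and 423 in si-NEK2. The groups covered the same range. Its log2 fold change was 0.02 with a 95% interval from -0.24 to 0.27 (limma with Benjamini-Hochberg adjusted p = 0.910), and its sign turned with the scaling, to -0.11 when libraries were scaled to an equal total. Relative to the median of all genes, which that scaling moved from 0.01 to -0.11, CCL2 stayed near the middle. The interval leaves out a change as large as the 1.5-fold limit in either direction.

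CCL5 (GSHG0013280, chromosome 17 from 34198498 to 34207377, hg19), also called RANTES, had 419.9, 279.9 and 268 normalized counts in si-CTRL and 139.9, 199 and 218 in si-NEK2. The highest value was again that of si-CTRL replicate 1, and the gap between the nearest libraries of the 2 groups was narrow. The mean fell from 323 ± 84.5 to 185 ± 40.5 (SD, n = 3), with a log2 fold change of -0.79 (standard error 0.22, limma with Benjamini-Hochberg adjusted p = 0.017). Without si-CTRL replicate 1 it was -0.58, just short of the fold change limit, with an adjusted p of 0.0252 by limma with Benjamini-Hochberg adjustment, so that 5 of the 8 genes were then called.

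CCL20 (GSHG0017252, chromosome 2 from 228678558 to 228682280, hg19), known as MIP-3-alpha, was the least abundant of the tested genes. Its normalized counts were 71.2, 91.0 and 83.7 in si-CTRL and 53.2, 31.6 and 38.4 in si-NEK2. The groups did not overlap, though each rested on fewer than 100 reads per library. The mean fell from 82.0 ± 10.0 to 41.1 ± 11.0 (SD, n = 3), with a log2 fold change of -1.0 (standard error 0.23, limma with Benjamini-Hochberg adjusted p = 0.00755).

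To compare the genes with each other, normalized counts were divided by the exon length of each gene in kilobases. On this scale the order in si-CTRL was CXCL8 (8312 normalized counts per kilobase), CXCL1 (1029), CXCL2 (826), CCL2 (387), CXCL3 (284), CCL5 (226), CXCL16 (145), CCL20 (97.4), CXCL10 (5.92) and CXCL5 (0.629). The ranges of CXCL1 and CXCL2 overlapped, as did those of each pair of neighbours from CCL2 to CXCL16. After silencing the order of the per-kilobase level was CXCL8 (1504), CCL2 (391), CXCL2 (221), CXCL1 (147), CXCL16 (141), CCL5 (129.7), CXCL3 (82.2), CCL20 (48.8), CXCL10 (2.00) and CXCL5 (0). CCL2 thus moved from the fourth to the second place while its own level overlapped between the groups, and CXCL1 dropped to a place where it could not be separated by its range from CXCL2, CXCL16 or CCL5.

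The summed level of the 10 transcripts was 11313 ± 1419 normalized counts per kilobase in si-CTRL and 2667 ± 151 in si-NEK2 (SD, n = 3), 4.24-fold lower. In si-CTRL, CXCL8 made up 73.5 ± 0.263% of this sum, a share that hardly varied between libraries. In si-NEK2 its share was 56.4 ± 2.00%, below each si-CTRL library. The share of CXCL1 was also smaller, at 9.07 ± 0.788% and 5.5 ± 0.444%, while that of CXCL2 was 7.27 ± 1.29% and 8.29 ± 2.19%, with overlapping groups. CCL2, whose own count overlapped between the groups, made up 3.49 ± 0.801% of the si-CTRL sum and 14.7 ± 0.323% of the si-NEK2 sum (SD, n = 3 for each share). The mean shares of CXCL16, CCL5 and CCL20 were also larger in si-NEK2, at 5.28%, 4.85% and 1.85%, beside 1.29%, 2.01% and 0.874% in si-CTRL. The counts of CCL5 and CCL20 themselves fell, and shares of a common sum depend on each other. Of 11 quantities compared, the sum and the shares of CXCL8, CXCL1, CXCL16, CCL2, CCL5 and CCL20 gave a two-sided p of 0.1 in an exact permutation test (0.157 after Benjamini-Hochberg adjustment). This is the smallest p that 3 libraries against 3 allow, so that none could pass 0.05.

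**Figure D2:**
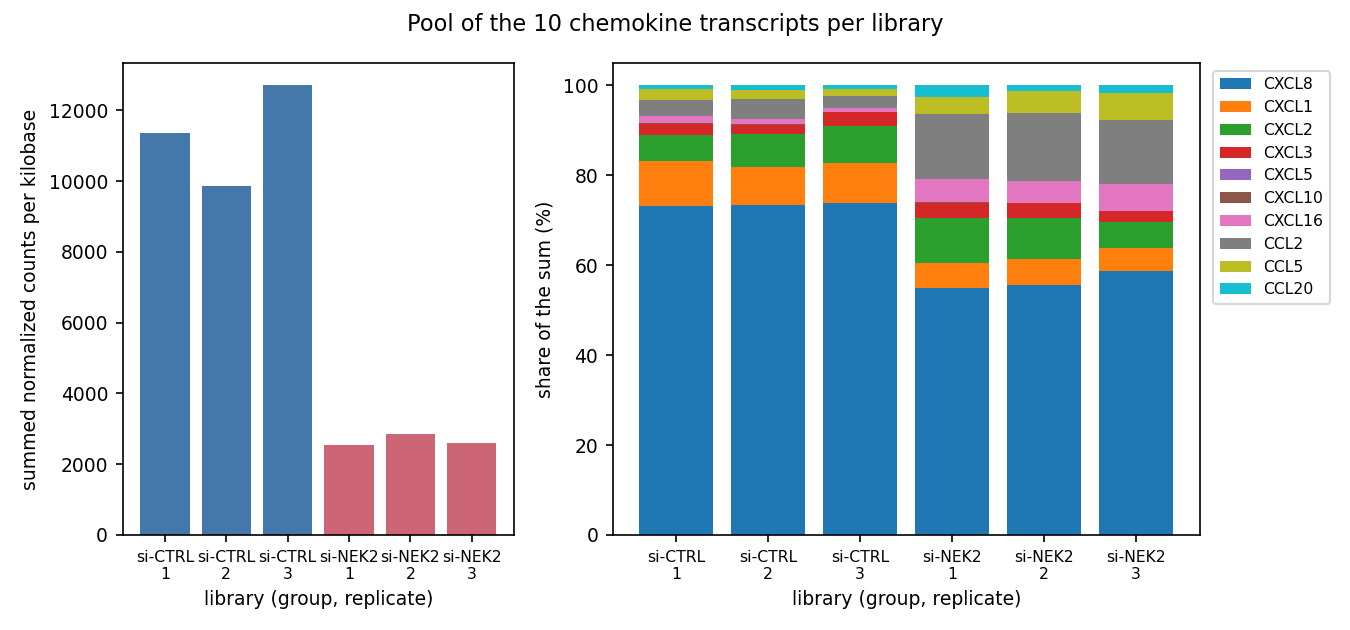
Left, summed normalized counts per kilobase of exon of the 10 chemokine genes in each library; right, the share of each gene in that sum in percent. The 3 si-NEK2 sums lie between 2556 and 2839, below each si-CTRL sum, and the CXCL8 share is 73.5% on average in si-CTRL and 56.4% in si-NEK2.

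CXCL8, CXCL1, CXCL3, CXCL5 and CXCL2 lie in one block of CXC genes on chromosome 4 that spans 358.775 kilobases (74606223 to 74964997, hg19). Its edges were set here at the start of CXCL8 and the end of CXCL2, which both fell. Genes beyond these edges were not examined as part of it. The annotation places 10 genes with a symbol in the block, and reads were found mainly on CXCL8, CXCL6, CXCL1, CXCL3 and CXCL2. Each of these 5 tested genes fell, beside 14.3% of all tested genes called lower, and all but CXCL6 were already described above. The platelet chemokine genes PF4V1, PF4 and PPBP lying between them had no reads in any library, and the pseudogene PPBPP2 had at most 1. CXCL6 (granulocyte chemotactic protein 2), the relative of CXCL5, had 264, 445 and 539 normalized counts in si-CTRL and 112, 125 and 139 in si-NEK2. Its log2 fold change was -1.67 (standard error 0.24, limma with Benjamini-Hochberg adjusted p = 0.000716). CXCL6 was therefore expressed and lower after silencing. Its relative CXCL5, with a promoter alike over 83.1% of its columns, gave at most 3 reads.

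**Figure D3:**
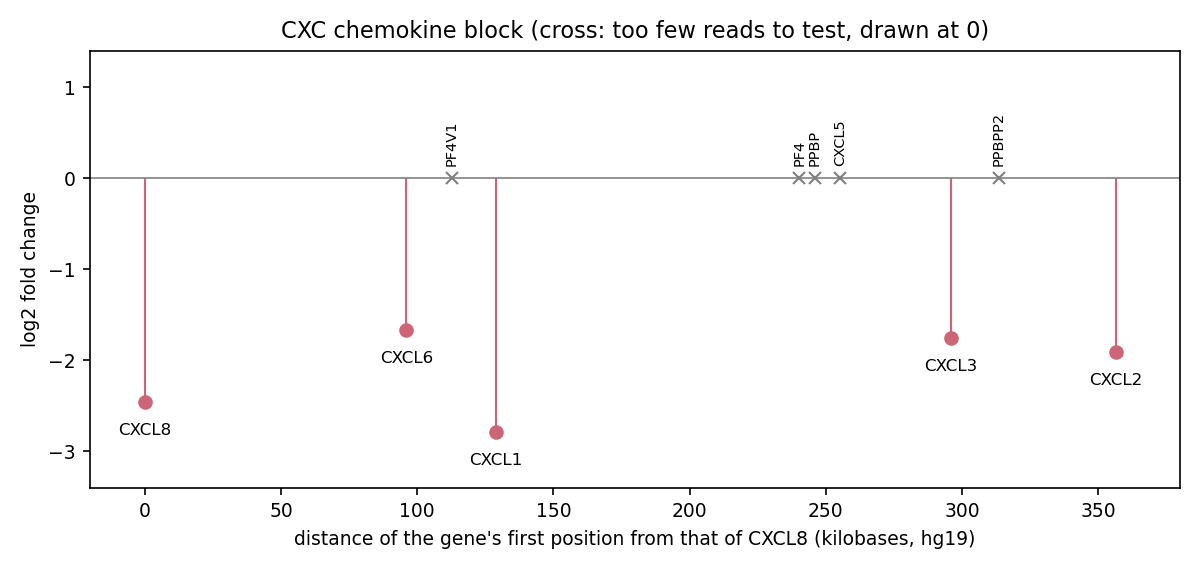
Log2 fold change (si-NEK2 minus si-CTRL) of the genes of the chromosome 4 CXC block against the distance of each gene's first position from that of CXCL8 in kilobases, with crosses at 0 for genes with too few reads to test. The 5 tested genes lie between -2.79 and -1.67, and CXCL8 and CXCL2 among them set the ends of the block.

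The remaining chemokine genes were taken from a list of 38 names. Of these, 23 had no read in any library and 7 could be tested, and of the 7, 4 fell, 2 rose and CCL28 was not called. For comparison, 14.3% of all tested genes were called lower and 8.23% higher. Each of the 7 had groups without overlap, as did 55% of all tested genes, and their median log2 fold change was -0.92. CCL7 (MCP-3), a monocyte attractant, fell from 100.4 ± 7.29 to 26.7 ± 4.71 normalized counts (SD, n = 3; log2 fold change -1.88, limma with Benjamini-Hochberg adjusted p = 0.000173). CXCL11, like CXCL10 a CXCR3 ligand induced by interferon, fell from 17.7 ± 1.61 to 2.89 ± 3.34 normalized counts (SD, n = 3), with a single si-NEK2 library at 0 and a log2 fold change between -3.96 and -1.61 depending on the pseudocount. CCL27, an attractant of skin-homing T cells, had a log2 fold change of -0.92 (limma with Benjamini-Hochberg adjusted p = 0.00336).

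The genes that rose were CXCL12 and CCL26. CXCL12 (SDF-1), the CXCR4 ligand usually made by stromal cells, had 251, 349.6 and 323 normalized counts in si-CTRL and 808, 711 and 796 in si-NEK2. Its mean was 2.51-fold higher, with a log2 fold change of 1.33 (standard error 0.13, limma with Benjamini-Hochberg adjusted p = 0.000118). CCL26 (eotaxin-3), an eosinophil attractant induced by interleukin 4, had 250.0, 274 and 229 normalized counts in si-CTRL and 646, 618 and 679.6 in si-NEK2. Its log2 fold change was 1.37 (standard error 0.11, limma with Benjamini-Hochberg adjusted p = 3.34e-05). Chemokine genes as a family thus did not move in one direction.

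**Figure D4:**
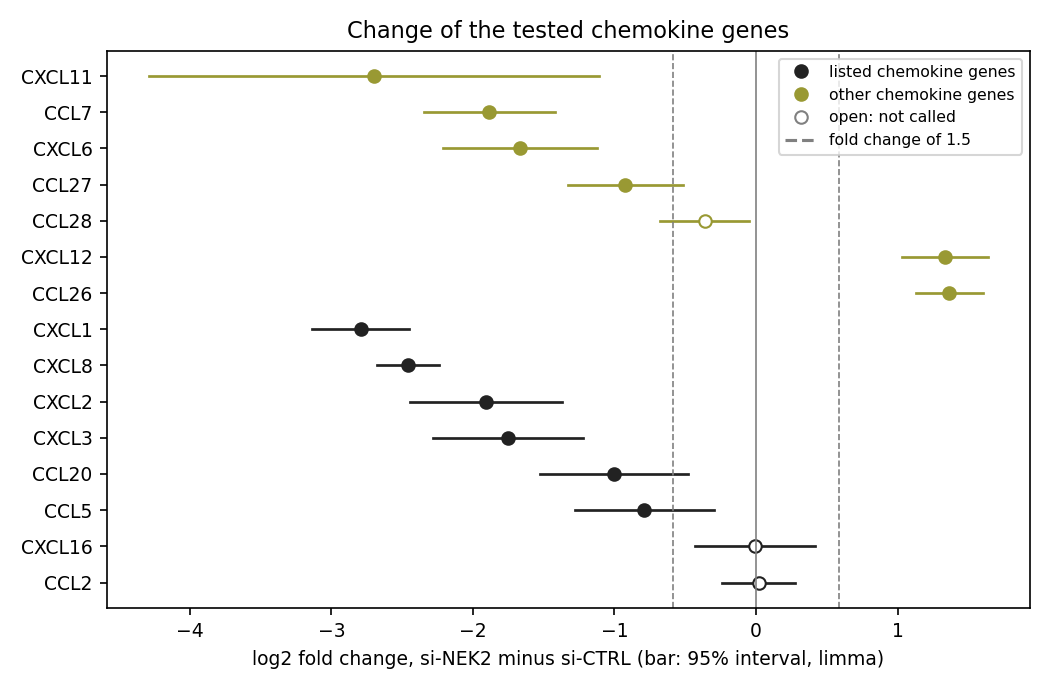
Log2 fold change (si-NEK2 minus si-CTRL, limma) with its 95% interval for the 8 tested inflammatory chemokine genes (black) and the 7 other tested chemokine genes (olive), filled where the gene was called, with dashed lines at a fold change of 1.5. CXCL1 lies farthest left of the black points at -2.79, CXCL16 and CCL2 lie at -0.01 and 0.02, and CXCL12 and CCL26 lie at 1.33 and 1.37.

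CCL7 lies 13.016 kilobases beyond the end of CCL2 (hg19) and shares receptors with it, and their values were set side by side. The ratio of CCL7 to CCL2 normalized counts was 0.245, 0.214 and 0.237 in the si-CTRL libraries. It was 0.0511, 0.0604 and 0.0707 in the si-NEK2 libraries, below each si-CTRL value. The exact permutation test of the ratio gave a two-sided p of 0.1, the smallest possible, and 3 such ratios were computed (0.1 after Benjamini-Hochberg adjustment).

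Receptors for these chemokines were barely detected; they are known mainly from leukocytes. CXCR1 and CXCR2 had at most 2 reads in any library, CXCR4 at most 2, and CXCR3, CXCR6 and CCR2 none. Of 23 receptor genes matched by name, 5 were tested. CCRL2, an atypical receptor that presents chemerin and does not signal, fell from 849 ± 108 to 555 ± 48.5 normalized counts (SD, n = 3; log2 fold change -0.61, limma with Benjamini-Hochberg adjusted p = 0.00348), and was not called when replicate 1 or 3 of si-CTRL (at -0.55 and -0.56) or replicate 1 of si-NEK2 (at -0.53) was left out. CCR10, the CCL27 and CCL28 receptor, had a log2 fold change of -1.26 with a 95% interval from -2.72 to 0.19. Its si-NEK2 libraries spread widely, at 45.8, 32.5 and 5.33 normalized counts. The row of CCR6, the CCL20 receptor, is shared with FGFR1OP and does not give its level.

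Cytokines, receptors, transcription factors and inhibitors tied to the transcription of these chemokine genes were described from a list of 29 genes. Of these, 28 were tested, 14 fell, 1 rose and 13 were not called, with a median log2 fold change of -0.55. As the list mixes activators with inhibitors such as TNFAIP3 and NFKBIA, its counts do not give a direction of activity. Of all tested genes, 14.3% were called lower and 8.23% higher. The deepest decreases were those of interleukin 1. IL1B had 3773, 3031 and 3413 normalized counts in si-CTRL and 272, 300.0 and 303 in si-NEK2, a log2 fold change of -3.54 (standard error 0.10, limma with Benjamini-Hochberg adjusted p = 6.1e-07). IL1A had a log2 fold change of -3.25, and the receptor IL1R1 one of -0.62, which was -0.58 and not called without si-NEK2 replicate 3. Both cytokines thus had larger decreases than any of the 8 chemokine genes. TNF had at most 12 reads and was not tested.

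Among the NF-kB genes, the subunits RELB and NFKB2 of the alternative pathway fell (log2 fold changes of -1.14 and -0.63), as did the feedback inhibitor TNFAIP3 (A20) and the coactivator NFKBIZ, at -2.13 and -1.0. The feedback inhibitor NFKBIA was not called, with a log2 fold change of -0.43 and a 95% interval from -0.75 to -0.11. Neither were the subunits RELA, REL and NFKB1 of the canonical pathway. REL had a log2 fold change of 0.19 with a 95% interval from -0.02 to 0.41. RELA had a log2 fold change of -0.34 with a 95% interval from -0.73 to 0.05. NFKB1 had one of 0.02 with an interval from -0.13 to 0.17, and its sign turned to -0.11 with equal total scaling and to -0.044 with upper quartile scaling. Transcript levels do not report the nuclear entry through which these factors act.

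The C/EBP and AP-1 genes that cooperate with NF-kB at chemokine promoters did not all move alike. CEBPB, FOSL1, JUNB and JUN fell, with log2 fold changes of -1.29, -1.09, -1.05 and -0.67, and JUN was not called without si-NEK2 replicate 3, at -0.49. FOS (-0.35) was not called, nor was CEBPD, which had 124 ± 56.9 normalized counts in si-CTRL and 229 ± 95.4 in si-NEK2 (SD, n = 3; log2 fold change 0.90 with a 95% interval from -0.06 to 1.85). The gene that rose was ATF3, a stress-induced factor that can repress chemokine transcription, with a log2 fold change of 0.70 (limma with Benjamini-Hochberg adjusted p = 0.017), and it was not called without si-CTRL replicate 2 or with equal total scaling, at 0.52 and 0.57. IL6, a target that NF-kB and C/EBP share with CXCL8, fell by 2.01 on the log2 scale.

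**Figure D5:**
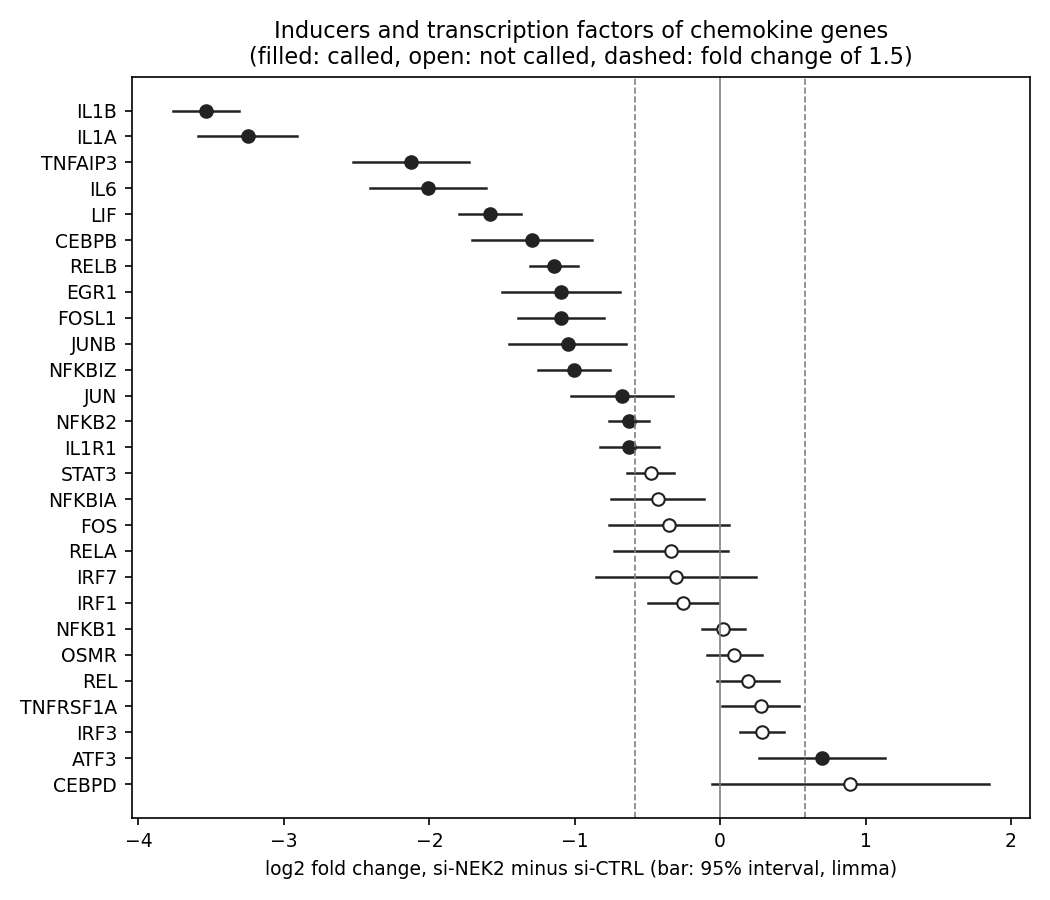
Log2 fold change (si-NEK2 minus si-CTRL, limma) with its 95% interval for inducers, receptors, transcription factors and inhibitors of chemokine genes, filled where called and open where not. IL1B and IL1A lie farthest left at -3.54 and -3.25, NFKB1 lies at 0.02, and ATF3 is the filled point on the right at 0.70.

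Over all tested genes with a RefSeq promoter, genes with the NF-kB-type sequence included both called decreases and called increases. Of 65 such genes with the sequence, 24.6% were called lower and 13.8% higher, beside 12.9% and 8.41% of all 10699 tested genes with a promoter. Their median log2 fold change was 0.01, and the chemokine genes shown above are among them. Of 561 genes with the AP-1 sequence, 21.7% were called lower and 6.24% higher. These shares are descriptions and were not tested.

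Genes that control the decay of AU-rich mRNAs gave 1 lower, 1 higher and 13 not called of 15 tested, beside 22.5% called of all tested genes, with a median log2 fold change of 0.02. ZC3H12A (regnase-1), a nuclease that cleaves IL6 and other inflammatory mRNAs and is itself an NF-kB target, fell, with a log2 fold change of -1.10 (limma with Benjamini-Hochberg adjusted p = 9.55e-05; its row is shared with MIR6732). DCP2, the decapping enzyme, rose by 0.86 (limma with Benjamini-Hochberg adjusted p = 0.000207). ZFP36 (tristetraprolin), which destabilizes CXCL1, CXCL2, CXCL8 and TNF mRNAs, had a log2 fold change of -0.54 (limma with Benjamini-Hochberg adjusted p = 0.0762). It was not called because its decrease stayed under the 1.5-fold limit, and it was called lower in 5 of 15 alternative fits, down to -0.72 without si-CTRL replicate 2.

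Of 18 genes that cleave chemokines or hold them on the cell surface, all 18 were tested, 3 fell and 2 rose, with a median log2 fold change of 0.17. These counts are close to the background, in which 14.3% of all tested genes were called lower and 8.23% higher. MMP1 and MMP9, proteases that process CXC and CC chemokines, fell by 2.60 and 1.84 on the log2 scale. SDC4, a heparan sulfate carrier, fell by 1.09. ADAM10, the sheddase of CXCL16, had 6153, 6347 and 6446 normalized counts in si-CTRL and 9177, 9732 and 9854 in si-NEK2, a log2 fold change of 0.60 (limma with Benjamini-Hochberg adjusted p = 0.000124). The other increase was that of HSPG2 (perlecan), also at 0.60. Both lay at the fold change limit. ADAM10 was not called in 4 of 15 alternative fits and HSPG2 in 7, among them equal total scaling (0.47 for both), upper quartile scaling (0.54 for both) and the fit without si-CTRL replicate 1 (0.58 and 0.48). CXCL16, the substrate of ADAM10, overlapped between the groups.

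To find transcripts with a pattern like that of CXCL8, the log2 profile over the 6 libraries, centred on its mean, was compared with that of 12101 other genes averaging 50 normalized counts or more. The nearest were FAM83A, TIE1 and FAM105A, with a root mean square difference of 0.0992, 0.107 and 0.121 on the log2 scale. Their log2 fold changes were -2.29, -2.49 and -2.28, beside -2.46 of CXCL8. As the profile includes the difference between the groups, this closeness follows from how the genes were picked.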

How the data were processed

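MDA-MB-231 cells transfected with si-CTRL or si-NEK2 siRNAs were sequenced as polyA-enriched RNA, 3 libraries per group, with groups taken from the sample records. The authors deposited a gene signal per library, the reads on a gene divided by the DESeq2 size factor, annotated with FAST DB on hg19 and kept apart by replicate. The submitters' processing notes name STAR 2.4.0, SAMtools, Picard and FastQC; the use of strand in counting is not given in the sources used here. Deposited signal values were whole reads (within 0.01) in 100% of cases once divided by the worth of 1 read, which returned the read counts, and depth ranged from 52625492 to 87454509 reads.

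Of 74852 genes, 18717 averaging 10 normalized counts or more were tested with limma 3.58.1 in R 4.3.3 (lmFit, eBayes with trend) on log2(value + 1), which understates the change of low genes. Calls needed p no higher than 0.05 and a 1.5-fold or larger difference, the limits of the study, with Benjamini-Hochberg adjustment over all tested genes. Fits were repeated with a pseudocount of 0.1 or 5, without a filter, with a mean of 50 or more, with equal total and upper quartile scaling, each library left out, the replicate number as a block, adjusted p-values, and with DESeq2 1.42.0 (Wald) and edgeR 4.0.16 (TMM, quasi-likelihood) on the recovered reads. The tests were checked on simulated data. Exon lengths and transcripts came from GENCODE v29, promoters from RefSeq. The members and lists were chosen with earlier results of these data known. The text names NEK2, the 10 chemokine genes, up to 3 of the largest increases and decreases of each list, list genes needed to describe a role, and the 3 genes nearest to CXCL8. KHSRP, from the decay list, was not used here. Single values of some list genes are not reported here. No 2 libraries of the same group agreed within sampling noise.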

Additional observations from a re-analysis of the deposited data

How the results depend on the processing

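Of the 8 tested chemokine genes, CXCL1, CXCL2, CXCL3, CXCL8 and CCL20 kept their direction and their call in each of 15 alternative fits, and 5 to 7 of the genes were called. The count was 7 without a filter on low values, when CXCL10 was added at a log2 fold change of -1.52, and 5 without si-CTRL replicate 1, when CCL5 was at -0.58. Calls over all genes ranged from 3246 with a mean of 50 or more to 5362 without a filter, with 4205 by edgeR and 4039 by DESeq2. Equal total scaling moved the median log2 fold change of all genes from 0.01 to -0.11 and the split of its 4417 calls to 21.3% higher, from 36.6%. The sign of uncalled genes turned. CXCL16 ranged from -0.14 to 0.22 with 1 library left out. CCL2 was at -0.11 with equal total and -0.047 with upper quartile scaling, and between -0.056 and 0.093 with 1 library left out. NFKB1 was at -0.11 and -0.044 under these scalings and between -0.011 and 0.057 with 1 library left out. The receptor list had 2 calls without a filter, when CCR4 was added, and 0 to 1 with 1 library left out. The call without si-NEK2 replicate 1 was not CCRL2, which was at -0.53 in that fit. The decay list had 4 calls with equal total and with upper quartile scaling. The processing list had 3 calls with upper quartile scaling and 3 to 6 with 1 library left out. The cause of these moves was not tested. Same-numbered libraries of the groups did not deviate together (r of -0.09, 0.05 and -0.15), and no library correlated best with its own number. With 3 libraries per group, these values cannot decide whether the numbers pair the libraries. With the replicate block, 6 chemokine genes and 4084 of all genes were called. Depth limits CXCL5 and CXCL10, with at most 10 reads.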
